A study of Mus musculus with 3 samples.

Results

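The 9 mature microRNAs (miRNAs, short RNAs that pair with messenger RNAs and repress them) described here are those whose expression is known to be restricted largely to blood-cell lineages. They are both strands of the miR-142, miR-223, miR-342 and miR-511 hairpins and the 5p strand of miR-150. They were chosen by name from the 1251 miRNAs listed in the deposited table, and all 9 had a row. The tissue was visceral white fat, specifically the epididymal pad, and it came from 3 mice of the C57BL/6J strain, numbered 1, 3 and 9. All mice received a high-fat diet supplemented with eicosapentaenoic acid (EPA), one of the omega-3 fatty acids, at 6.75%. Of the dietary energy, 45% came from fat, 35% from carbohydrate and 20% from protein. The diet began at 5 to 6 weeks of age and lasted 11 weeks, and a fast of 4 h preceded tissue collection. No mice on another diet were analysed here. The values below thus describe fat on this diet and not what EPA changed.

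White fat holds adipocytes together with vessels, fibroblasts and resident or infiltrating immune cells, and macrophages and lymphocytes are known to accumulate in it in obesity. A miRNA gene is transcribed as a hairpin, from which a 5p and a 3p strand are cut. Usually 1 of these strands is loaded into the silencing complex and the other is degraded. Bases 2 to 8 of the loaded strand, the seed, are the main determinant of its targets. miR-142 is made in nearly all blood-forming cells, miR-150 in mature lymphocytes, miR-223 in neutrophils and monocytes, miR-342 in several leukocyte types, and miR-511 in macrophages and dendritic cells together with its host gene.

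The hairpins lie on 5 chromosomes of the mouse assembly GRCm38 (mm10) in GENCODE annotation, all on the plus strand. Mir142 covers chr11:87756864-87756927 in an intron of its long noncoding host gene Mir142hg, with Mir142b annotated on the opposite strand. Mir150 covers chr7:45121757-45121821 and overlaps no other annotated gene. Mir223 covers chrX:96242817-96242926 and overlaps an exon of a noncoding gene. Mir342 covers chr12:108658620-108658718 in an intron of Evl, which encodes an actin regulator. Mir511 covers chr2:14261003-14261081 in an intron of Mrc1, which encodes the mannose receptor CD206 of macrophages.

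A mature sequence was matched in RefSeq (GRCm38.p6) for 7 of the 9 miRNAs, the remaining names being miR-150-5p and miR-511-5p. The dominant strand of 4 hairpins, and the 3p strand of miR-142 because its level stood far below that of its partner, are shown with the seed in capitals.
miR-342-3p: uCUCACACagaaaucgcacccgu
miR-142-5p: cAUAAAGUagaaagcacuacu
miR-142-3p: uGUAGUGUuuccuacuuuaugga
miR-223-3p: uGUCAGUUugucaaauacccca
miR-511-3p: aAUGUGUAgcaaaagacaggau
The 7 matched miRNAs had 7 different seeds, and 0 other entries among the 1738 mature sequences in the RefSeq table shared one of them. The matched miRNAs are thus grouped by lineage and not by seed. The strands of miR-142 were poor in G and C, at 33.3% for 5p and 34.8% for 3p, against a median of 52.2% over all mature entries. miR-223-3p held 40.9%, miR-511-3p 36.4% and miR-342-3p 52.2%.

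The levels are the deposited log2 normalized counts, in which the lowest value of the table, 3.32 or 10 on the linear scale, is a floor. A miRNA was called seen in any mouse where its value exceeded that floor, and linear values below are normalized counts above it. When each mouse is sorted by level, 121 of the 336 ranks above the floor held the same value in the 3 mice within 1e-06. The largest difference at any rank was 0.34 log2 units. A difference between mice larger than that is therefore at least partly a difference of rank. About 13.8 M reads were mapped per sample according to the series' design text, but the depth of each library and the raw counts behind the values are not given, so no counting error is attached, and the labels imply, but do not state, that each sample is its own animal. All 6 miRNAs of an adipocyte-rich list (miR-143-3p, miR-378a-3p, miR-103-3p, miR-365-3p, miR-193b-3p and miR-107-3p) were seen in the 3 mice, where 22.9% of all miRNAs listed were. Their summed share was 7.96% to 11.6%, most of it from miR-143-3p (5.87% on average) and miR-378a-3p (3.04%). The list measures neither the adipocyte content nor how much of another tissue came with the fat. Muscle miRNAs varied widely between the mice: miR-133a-3p averaged 14.78 ± 2.47 log2 units and miR-133b-3p 7.65 ± 3.32 (SD, n = 3). Among epithelial miRNAs, miR-205-5p averaged 9.28 ± 1.62 log2 units, whereas miR-203-3p was steadier at 9.54 ± 0.27. The part of unequal tissue content in the differences between mice below was not tested.

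Of the 9 leukocyte miRNAs, 6 were seen in all 3 mice, where 22.9% of all miRNAs listed were. They were both strands of miR-511 and the dominant strands miR-150-5p, miR-342-3p, miR-142-5p and miR-223-3p. miR-142-3p and miR-342-5p were seen in mice 1 and 9, and miR-223-5p was listed at the floor in all 3. Their median level was 6.15 log2 units, whereas the median of all 1251 miRNAs was at the floor of 3.32. Together the 9 held 0.430%, 0.412% and 0.460% of the summed normalized counts of mice 1, 3 and 9, a mean of 0.434% ± 0.0238 (SD, n = 3). In whole tissue, fewer cells of a type and less of its RNA per cell cannot be told apart.

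**Figure D1:**
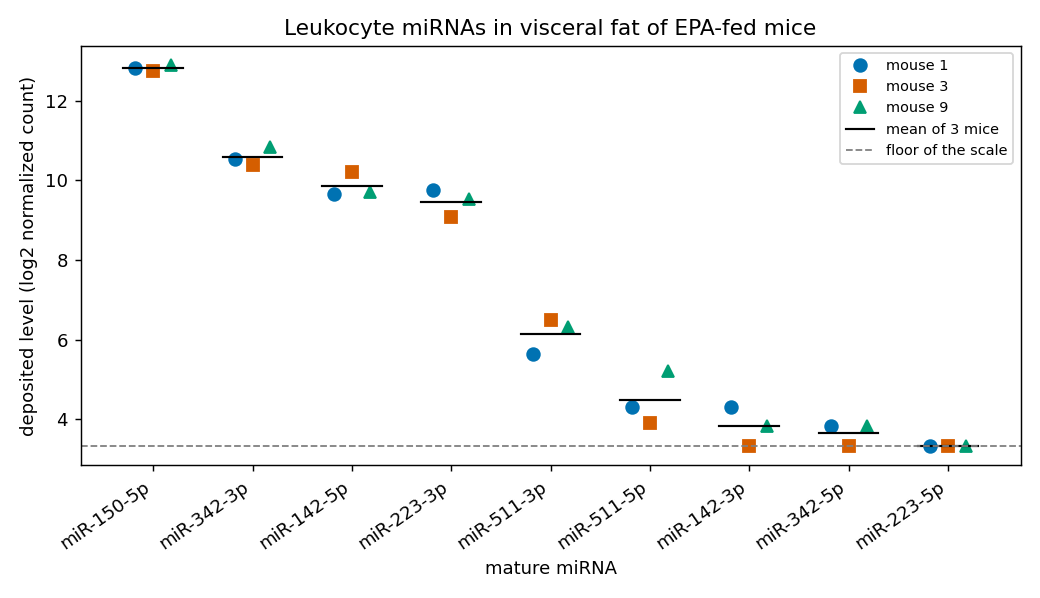
Deposited level (log2 normalized count) of the 9 leukocyte miRNAs in mice 1, 3 and 9, with the mean of 3 mice as a bar and the floor of the scale as a dashed line. miR-150-5p stands above the rest at 12.74 to 12.89, 3 miRNAs lie between 9.08 and 10.82, and 5 lie lower, the last of them at the floor.

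miR-150-5p, a regulator of B and T cell maturation through the transcription factor Myb, was the highest of the 9. Its level was 12.81 log2 units in mouse 1, 12.74 in mouse 3 and 12.89 in mouse 9, or 7170, 6809 and 7596 normalized counts. The 3 mice lay close together, with an SD of 0.08 log2 units (n = 3) around a mean of 12.81. It held rank 41, 42 and 40 of 1251 in mice 1, 3 and 9. Its share of all normalized counts was 0.299% ± 0.0164, and its share of the counts of the 9 leukocyte miRNAs was 69.3%, 68.6% and 68.7%. The miRNA directly above it by mean was miR-26b-5p at 12.99 ± 0.19 log2 units and the one below was miR-25-3p at 12.74 ± 0.15, so its place among its neighbours lay within the spread between mice.

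miR-342-3p, processed from the Evl intron, came next. It stood at 10.53 log2 units in mouse 1, 10.38 in mouse 3 and 10.82 in mouse 9, or 1464, 1326 and 1803 normalized counts. Mouse 9 was highest and mouse 3 lowest, and the mean was 10.58 ± 0.22 (SD, n = 3), with ranks of 82, 84 and 75. It supplied 14.6% ± 1.52 of the counts of the 9 miRNAs. Its neighbours by mean were miR-320-3p (10.65 ± 0.09 log2 units) and miR-335-3p (10.57 ± 0.39).

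miR-142-5p, from the hairpin shared by nearly all leukocytes, stood at 9.65 log2 units in mouse 1, 10.21 in mouse 3 and 9.71 in mouse 9. These levels are 794, 1171 and 830 normalized counts. Mouse 3 was the high one and mice 1 and 9 were close to each other. The mean was 9.86 ± 0.30 log2 units (SD, n = 3), the ranks were 98, 87 and 97, and the share of the counts of the 9 miRNAs was 8.99% ± 2.43. By mean it ranked between miR-425-5p (9.89 ± 0.16 log2 units) and miR-30c-2-3p (9.78 ± 0.11).

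miR-142-3p is known as an abundant strand in blood cells, where both strands of this hairpin act. Here it stood at 4.31 log2 units in mouse 1, at the floor in mouse 3 and at 3.83 in mouse 9, or 9.83, 0 and 4.18 normalized counts. It was thus barely above the floor, in mouse 3 listed at 0, the mouse in which miR-142-5p was highest.

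miR-223-3p restrains neutrophil production and the inflammatory activation of macrophages. Its level was 9.76 log2 units in mouse 1, 9.08 in mouse 3 and 9.52 in mouse 9, or 858, 531 and 724 normalized counts. Mouse 3 was the low one, the reverse of miR-142-5p. The mean was 9.45 ± 0.34 (SD, n = 3), the ranks were 96, 114 and 101, and the share of the counts of the 9 miRNAs was 6.73% ± 1.47. miR-203-3p (9.54 ± 0.27 log2 units) and miR-328-3p (9.42 ± 0.13) were its neighbours.

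The macrophage miR-511 was the only one of the 5 hairpins with both strands above the floor in every mouse, and both were low. miR-511-3p, the strand known to limit Rock2 in tissue macrophages, stood at 5.64 log2 units in mouse 1, 6.49 in mouse 3 and 6.32 in mouse 9. These are 39.7, 80.0 and 69.7 normalized counts, with mouse 1 low. miR-511-5p stood at 4.31, 3.91 and 5.20 log2 units, or 9.83, 5.05 and 26.8 normalized counts, with mouse 9 highest. The strands therefore did not share an order of mice. Of the remaining strands, miR-342-5p was listed at 4.18 normalized counts in mice 1 and 9 and at 0 in mouse 3, and miR-223-5p at 0 throughout. Values near the floor repeat between miRNAs: miR-142-3p and miR-511-5p held the same value in mouse 1, and miR-142-3p and miR-342-5p in mouse 9.

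**Figure D2:**
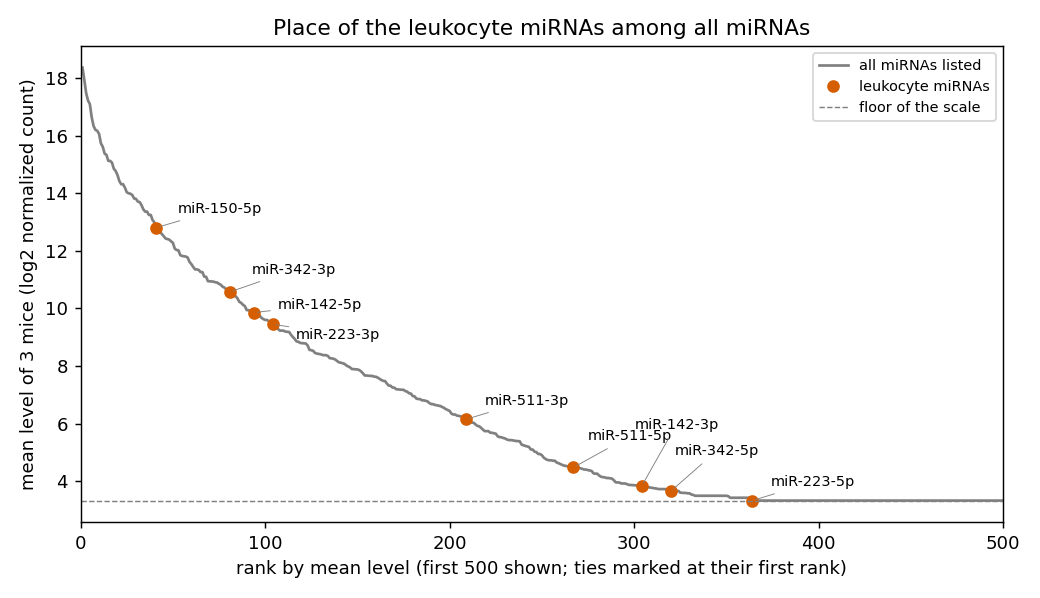
Mean level of 3 mice (log2 normalized count) against rank for the 500 highest of 1251 miRNAs, with the 9 leukocyte miRNAs marked and the floor dashed. miR-150-5p lies at rank 41, miR-342-3p at 81, miR-142-5p at 94 and miR-223-3p at 104, and miR-223-5p ties with the other miRNAs at the floor from rank 364.

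The 7 miRNAs with a matched sequence are 21 to 23 bases long. Strands of different sequence can be captured unequally in a library, which was not tested. With that limit, the order from miR-150-5p to miR-342-3p to miR-142-5p held in 3 of 3 mice. miR-150-5p exceeded miR-342-3p by 2.28, 2.35 and 2.07 log2 units in mice 1, 3 and 9, and miR-342-3p exceeded miR-142-5p by 0.87, 0.18 and 1.11. The lymphocyte miR-150-5p exceeded the myeloid miR-223-3p by 3.05, 3.65 and 3.37 log2 units, a mean of 3.36 ± 0.30 (SD, n = 3). Each of these 3 differences had a two-sided exact sign-flip p of 0.25, the smallest that 3 mice allow, and 0.333 after Benjamini-Hochberg adjustment over the 4 differences tested.

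miR-142-5p and miR-223-3p did not keep an order. miR-142-5p minus miR-223-3p was -0.11 log2 units in mouse 1, 1.12 in mouse 3 and 0.19 in mouse 9, a mean of 0.40 ± 0.64 (SD, n = 3). The exact sign-flip p was 0.5, also after adjustment, and the difference was positive in 2 of 3 mice. Without mouse 3 the mean was 0.04. Lower in the order, miR-223-3p stood above miR-511-3p in 3 of 3 mice and miR-511-3p above miR-511-5p in 3 of 3. miR-511-5p exceeded miR-142-3p in 2 mice with 1 tie, miR-142-3p exceeded miR-342-5p in 1 mouse with 2 ties, and miR-342-5p exceeded miR-223-5p in 2 mice with 1 tie.

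Each of the 4 abundant hairpins had 1 strand far above the other in the table, and the higher strand was not always on the same arm. The 5p strand was higher for miR-150 and miR-142 and the 3p strand for miR-342 and miR-223, each in 3 of 3 mice. The log2 ratio of 5p to 3p was tested with limma over the 129 hairpins with both strands listed and the higher at a mean of at least 100 normalized counts. miR-142 and miR-342 passed at a Benjamini-Hochberg adjusted p below 0.05, as did 96.9% of the hairpins tested, 51.2% toward 5p and 45.7% toward 3p. A hairpin enters through its higher strand, so passing is close to the background and singles out neither.

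For miR-142 the log2 ratio of 5p to 3p was 5.34, 6.88 and 5.89 in mice 1, 3 and 9, a mean of 6.04 (limma SE 0.34). For miR-342 it was -6.70, -7.06 and -7.00, a mean of -6.92 (limma SE 0.16). How the authors counted and annotated miR-142-3p could not be checked, so its low value may not be the level of that strand in the tissue. Both ratios were taken against a weak strand at or near the floor, so the size of the ratio depends on the constant added to the counts. With the filter on the higher strand, passing was then all but fixed in advance, so no p is given. The size for miR-142 exceeded that of 59.7% of the hairpins tested, whose median size was 5.14, and the size for miR-342 exceeded 69.0%.

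For miR-150 and miR-223 the weak strand was listed at the floor in every mouse, as was 1 strand of 47 of the 129 hairpins. No p is given, since the floor and the filter fix the outcome of the test. The values of these hairpins are distances from the floor value and not measured ratios. miR-150-5p stood above the floor value of miR-150-3p by 9.49, 9.41 and 9.57 log2 units. For miR-223 the 5p floor value minus the 3p level was -6.44, -5.76 and -6.20 log2 units, a mean of -6.13. miR-511 lay below the level needed to enter the test. Its 5p to 3p ratio was -1.33, -2.58 and -1.11 log2 units in mice 1, 3 and 9, so its 3p strand led in 3 of 3 mice. The mean of -1.67 was taken against a 5p strand near the floor, at 9.83, 5.05 and 26.8 normalized counts, so no p is given.

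**Figure D3:**
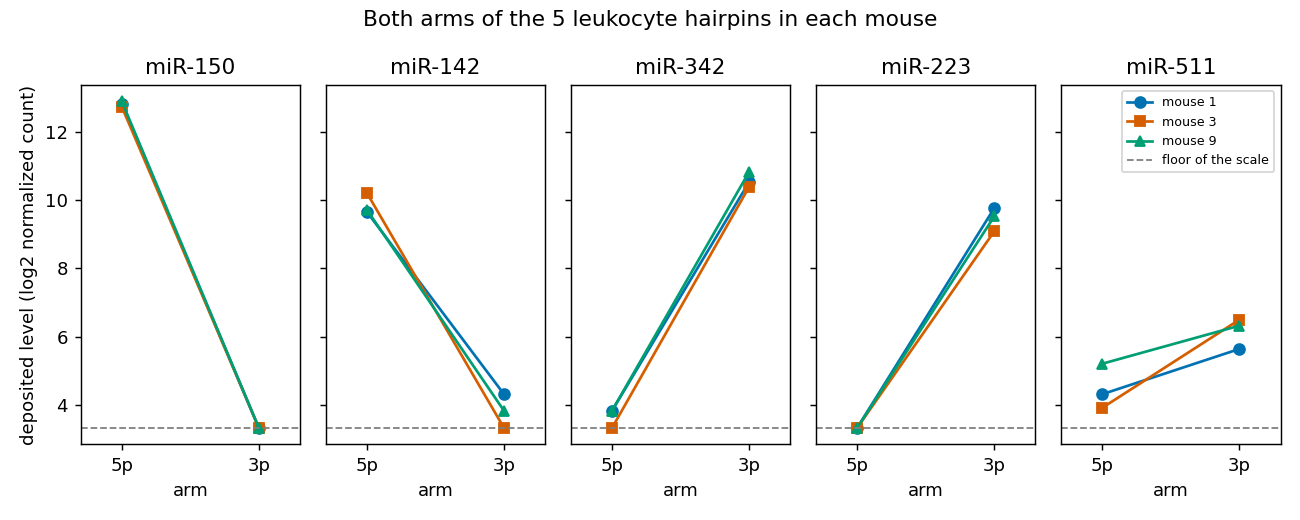
Level (log2 normalized count) of the 5p and 3p strand of each hairpin in mice 1, 3 and 9, joined by a line per mouse, with the floor dashed. The 5p end is the higher one for miR-150 and miR-142, and the 3p end for miR-342, miR-223 and, at low levels, miR-511.

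The leukocyte miRNAs did not deviate together across the mice. Relative to the own mean of each miRNA, mouse 3 was lowest for miR-150-5p (-0.08 log2 units), miR-342-3p (-0.19) and miR-223-3p (-0.37). In the same mouse miR-142-5p was highest (0.35), as was miR-511-3p (0.34). After median-ratio scaling of the counts, mouse 3 remained highest for miR-142-5p (10.27) and miR-511-3p (6.55) and lowest for miR-223-3p (9.14) and miR-342-3p (10.45). For miR-150-5p the lowest was then mouse 1 (12.78), with 12.80 in mouse 3 and 12.84 in mouse 9, so its order of mice is not settled by these values.

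**Figure D4:**
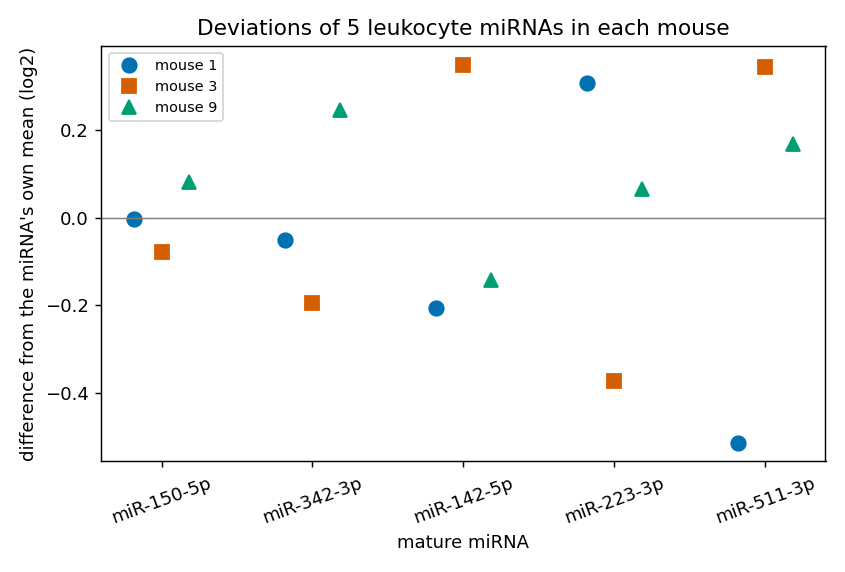
Difference of each mouse from the mean of the miRNA (log2) for the 5 highest leukocyte miRNAs, 1 point per mouse. Mouse 3 lies below the mean for miR-223-3p, miR-342-3p and miR-150-5p and above it for miR-142-5p (0.35) and miR-511-3p (0.34).

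For 4 of these miRNAs the size of the deviations lay within the range seen across the table. miR-511-3p, at a mean of 63.1 normalized counts, was too low to enter this comparison. Over the 194 miRNAs averaging at least 100 normalized counts, the median SD was 0.22 log2 units, and over the 4 leukocyte miRNAs among them it was 0.26. miR-150-5p was among the steadier ones, with 9.28% of the 194 having a smaller SD. That share was 50.0% for miR-342-3p, 67.0% for miR-142-5p and 71.1% for miR-223-3p. Mouse 3 sets much of the spread of the last 2: without it the SD was 0.04 log2 units for miR-142-5p and 0.17 for miR-223-3p, against 0.30 and 0.34 with it. For miR-342-3p it was 0.10 without mouse 9, against 0.22 with it. By limma's test of each variance against the trended prior, 0% of the 194 passed once p was adjusted by Benjamini-Hochberg, and 7 had an unadjusted p below 0.05. The limma adjusted p was 0.963 for miR-150-5p and 0.918 for miR-342-3p, miR-142-5p and miR-223-3p. The robust prior of limma was also used, with its largest prior degrees of freedom (4.55) applied to every miRNA. Then 2 of the 194 (1.03%) passed, neither of them a leukocyte miRNA, and 12 had an unadjusted p below 0.05. With 3 mice this test has few degrees of freedom, and its misses do not establish equal levels. With the trended prior it also missed strongly variable miRNAs in simulated data.

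**Figure D5:**
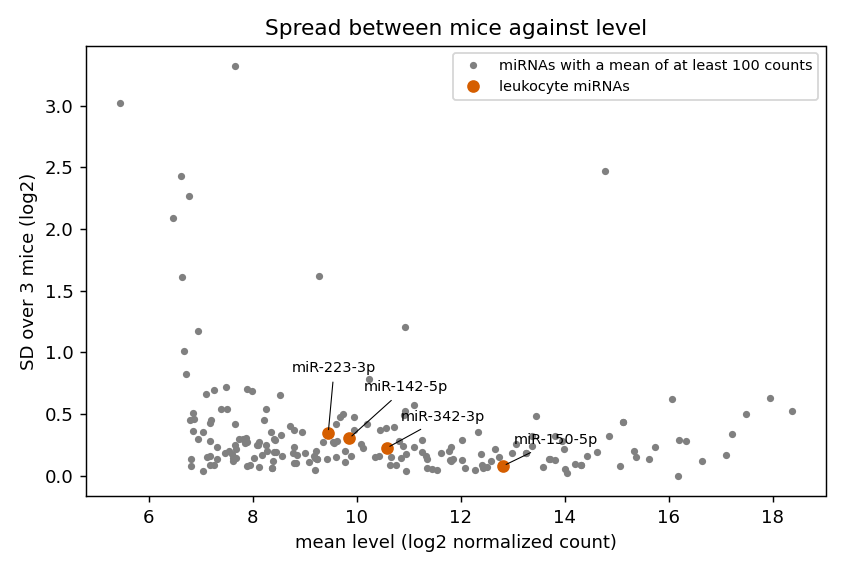
SD over 3 mice (log2) against mean level (log2 normalized count) for the 194 miRNAs averaging at least 100 normalized counts, with 4 leukocyte miRNAs marked. Their SDs, from 0.08 for miR-150-5p to 0.34 for miR-223-3p, lie within the main cloud.

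The mean deviation of the 6 leukocyte miRNAs seen in all mice was -0.11, -0.09 and 0.19 log2 units in mice 1, 3 and 9. Of 190 other miRNAs at a mean of at least 100 normalized counts, miR-125a-5p came nearest to that profile, with a root mean square difference of 0.02 log2 units over the 3 mice. miR-652-3p and miR-30a-3p followed, also at 0.02. This likeness rests on 3 values and on a mean of miRNAs that themselves deviate in different directions. The low strands of miR-511 deviated most among the 6 and weigh most on that mean. In mice 1, 3 and 9 miR-511-5p deviated by -0.16, -0.56 and 0.73 log2 units and miR-511-3p by -0.51, 0.34 and 0.17.

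miRNAs that leukocytes raise on activation were also read from the table. Of 8 inflammation-induced miRNAs, 5 were seen in all mice, where 22.9% of all miRNAs listed were. The other 3 stood at the floor throughout, as did 888 of the 1251 miRNAs listed. They were both strands of miR-155, which activated macrophages and lymphocytes make, and miR-147-3p. miR-21a-5p, expressed well beyond leukocytes, led at 13.69, 13.84 and 13.56 log2 units in mice 1, 3 and 9. It was followed by the feedback inhibitors of NF-kappaB signalling miR-146b-5p (10.82, 10.61 and 10.53) and miR-146a-5p (9.15, 9.21 and 9.23). miR-132-3p averaged 8.80 ± 0.10 and miR-212-3p 4.94 ± 0.62 (SD, n = 3). The summed share of this list was 0.665%, 0.715% and 0.609%. It lay above that of the 9 leukocyte miRNAs in 3 of 3 mice, but only with miR-21a-5p counted. Most of the sum was miR-21a-5p at 0.553% ± 0.0529.

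Among 11 miRNAs that blood-forming cells share with other tissues, 9 were seen in all mice, against 22.9% of all miRNAs listed. The others, miR-106a-5p and miR-363-3p, were at the floor. miR-181a-5p, a tuner of T cell receptor sensitivity that is also abundant outside blood, led at 16.21 ± 0.29 log2 units (SD, n = 3). The list had a summed share of 6.54% ± 0.942, against 0.434% ± 0.0238 for the 9 leukocyte miRNAs, none of which it includes. miR-191-5p (15.74 ± 0.23), miR-29a-3p (14.00 ± 0.06), miR-181b-5p (11.81 ± 0.12), miR-322-5p (11.36 ± 0.07) and miR-24-3p (10.85 ± 0.14) came next.

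Red-cell miRNAs, markers of whole blood, summed to more than the leukocyte set in 3 of 3 mice, but only with miR-486-5p counted. Of 4 erythroid miRNAs 3 were seen in all mice, against 22.9% of all miRNAs listed, and miR-144-3p was seen in mouse 1 alone. The list summed to 2.39%, 1.51% and 1.38% in mice 1, 3 and 9, against 0.430%, 0.412% and 0.460% for the 9 leukocyte miRNAs. miR-486-5p (15.63, 14.95 and 14.81 log2 units) made up most of it and is also expressed in muscle, and its row is identical to that of miR-3107-5p, so reads of these cannot be told apart. Without it the erythroid sum was 0.285%, 0.197% and 0.179%, below the leukocyte set in 3 of 3 mice. miR-451a, the most erythroid-restricted, stood at 12.74, 12.20 and 12.07, and miR-144-5p at 5.90, 6.08 and 4.52. Mouse 1 was highest for miR-451a, as it was for miR-223-3p, while miR-150-5p was highest in mouse 9. The part of circulating blood in the levels of the leukocyte miRNAs was not tested.

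The endothelial miR-126 strands, which mark vessels, summed to 0.618%, 0.884% and 0.653% of the counts in mice 1, 3 and 9. miR-126-3p stood at 13.18, 13.74 and 13.18 log2 units and miR-126-5p at 12.45, 12.89 and 12.65. Mouse 3 was highest for both, as it was for miR-142-5p and miR-511-3p and unlike miR-223-3p, miR-342-3p and miR-150-5p. The part of tissue makeup in these values was not tested.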

How the data were processed

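Small RNA libraries were made from total RNA of frozen epididymal fat with the Illumina small RNA protocol, per the labels' protocols. The authors deposited 1 table of log2 values, 1 per mature miRNA and mouse, per the file headers. Reads (about 13.8 M mapped per sample, from the series' design text) were mapped to mm10, counted, normalized to total usable reads, and given 40 added counts. The submitters' processing notes name the same build. No aligner or miRNA annotation is named: these were not given in the sources used here. In linear terms the lowest value is 10, with 260 values above 10 and below 40, which a constant of 40 would not leave. The nearly equal sorted columns, with a largest difference at any rank of 0.34, resemble quantile normalization, which no source states.

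Linear values are 2 to the power of the deposited value, minus 10. Logs use 10 added back, which is the deposited scale and understates differences near the floor. Strand ratios of 129 hairpins, of 425 with both strands listed, and variances of 194 miRNAs were tested with limma 3.58.1 in R 4.3.3, two-sided for ratios and one-sided for variances, with Benjamini-Hochberg adjustment over all features tested and a threshold of 0.05. Both were tested on simulated data, in which the variable miRNAs were given spreads far above those of the leukocyte miRNAs. There the variance test with the trended prior missed the variable miRNAs and the robust prior found most of them. Power at the spreads seen here was not tested. Differences between 4 pairs of miRNAs used an exact sign-flip test. p-values reflect only how these 3 samples differ, and that may be technical. Other steps ran in Python 3.11.15 with pandas 2.3.3 and numpy 2.4.6, and plots in matplotlib 3.10.9. Hairpin positions come from GENCODE M21, and RefSeq mature names were matched directly or, for miR-142, as miR-142a.

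The members, lists and tests were chosen with earlier results of these data known. Named were all 9 miRNAs, the other strand of miR-150, any miRNA sharing a seed, the neighbours in rank of the 4 highest, the 3 nearest profiles, and up to 6 seen members of each list of inflammation-induced, broader blood-forming, erythroid, endothelial and adipocyte-rich miRNAs. miR-424-5p of the broader list was not analysed here. The floor members, miR-144-3p and miR-3107-5p were named to account for counts or shared rows. The muscle and epithelial miRNAs were named for how they varied between mice. Alternatives were other pseudocounts (1 or 40), filters, priors, scaling, thresholds for being seen, totals, and leaving out each mouse.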

Additional observations from a re-analysis of the deposited data

How the results depend on the processing

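No choice tried turned the sign of a strand ratio of miR-142 or miR-342 or moved it across the threshold where the hairpin was tested. With weak strands at or near the floor and the filter on the higher strand, this was all but fixed in advance. The test of miR-150 and miR-223 is fixed by the floor and is not counted. The sizes moved with the added constant: for miR-142 the ratio was 7.91 with a pseudocount of 1 and 4.43 with 40. Requiring a mean of at least 1000 left 39 hairpins higher in 5p and 28 in 3p, against 66 and 59, since fewer were tested, and miR-142 and miR-223 were then not tested. The variance test called 2 miRNAs with the robust prior and 0 otherwise. Without 1 mouse, 63 to 66 hairpins were higher in 5p and 53 to 56 in 3p. The 9 miRNAs held a share of 0.421% to 0.445% without 1 mouse, and 6 to 8 were seen in every mouse left, the 8 being without mouse 3. Counting as seen only values of at least 10 or 100 normalized counts left 5 or 4. The raw counts behind the weak strands, which lie at or near the floor, are not known. No paired analysis was possible because there is 1 group, so replicate numbers pair no samples across groups; strands and miRNAs were compared within each mouse.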
